A study of Mus musculus with 18 samples.

Results

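The liver transcriptome was compared between diabetic mice that received alginate oligosaccharide (AOS) directly and diabetic mice that did not. Alginate oligosaccharides are short sugar chains cut from alginate, the wall polysaccharide of brown seaweeds. Diabetes was induced with streptozotocin (STZ), a toxin that enters and kills the insulin-producing beta cells of the pancreas. The STZ+AOS group held 3 mice labelled as given STZ and AOS at 10 mg/kg, and the STZ group held 3 mice given STZ without AOS. All were ICR mice, an outbred stock in which the animals of a group are not genetically identical, and their livers were labelled as taken at 10 weeks of age. The paper describes its mice as male. The other groups used here were 3 mice labelled as control (Con) and 3 mice given AOS at 10 mg/kg without STZ (AOS). The paper describes its control mice as given saline. The whole series held 18 liver libraries, which also included 2 groups of STZ mice given gut microbiota. The route and schedule of AOS in the STZ+AOS mice were not given in the sources used here, nor was it stated that each library came from a separate animal. A mouse stands for 1 library throughout, and the p-values measure the spread between these libraries, which may be partly technical. Genes with at least 1 RPKM (read counts divided by the length of the transcript and by the library's mapped reads) in at least 3 of the 6 STZ and STZ+AOS libraries were compared, which kept 10446 of 19057 gene rows. The comparison asked whether AOS given to the diabetic animal altered the liver of STZ mice.

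The liver stores and releases glucose under the control of insulin. When insulin is lost, hepatocytes raise the genes of gluconeogenesis and amino acid breakdown, lose enzymes of fat synthesis, and take up fatty acids that activate the receptor PPAR-alpha and its oxidation genes. The male pattern of the mouse liver, with its major urinary proteins (Mup genes), depends on growth hormone pulses and is known to fade in diabetes.

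The third libraries of 4 groups were unlike the others of their groups, and values without them are given beside results that moved most. Mouse 3 of the STZ group lay at a distance of 51.4 from the Con mean (Euclidean distance on log2(RPKM + 1) over all genes tested), whereas STZ mice 1 and 2 lay at 87.3 and 85.7. Its most abundant transcript was Mup10, and its nearest library of all 18 was a Con-FMT library. Mouse 3 of the STZ+AOS group lay as far from Con (81.7) as mice 1 and 2 of its group (both 81.4), but apart from them on the third principal component (35.7 against -8.7 and -10.4). Con mouse 3 lay between Con mice 1 and 2 in 120 of the 121 genes in which those mice differed at least 2-fold, at a median position of 0.48 of the way from mouse 1 to mouse 2. AOS mouse 3 lay between the other AOS mice in 107 of 111 such genes, at a median position of 0.65. In the STZ and STZ+AOS groups no library lay between the other two in more than 73.9% of such genes. Whether these Con and AOS libraries are independent of the other mice of their groups was not tested, and RPKM values of these groups are given mouse by mouse or as ranges. The limma fits count all libraries as independent. Their p-values and intervals against Con or AOS may thus be too small and too narrow. The median within-group SD over genes was 0.111 and 0.093 (log2) in Con and AOS and 0.191 and 0.215 in STZ and STZ+AOS, each over 3 libraries.

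**Figure D1:**
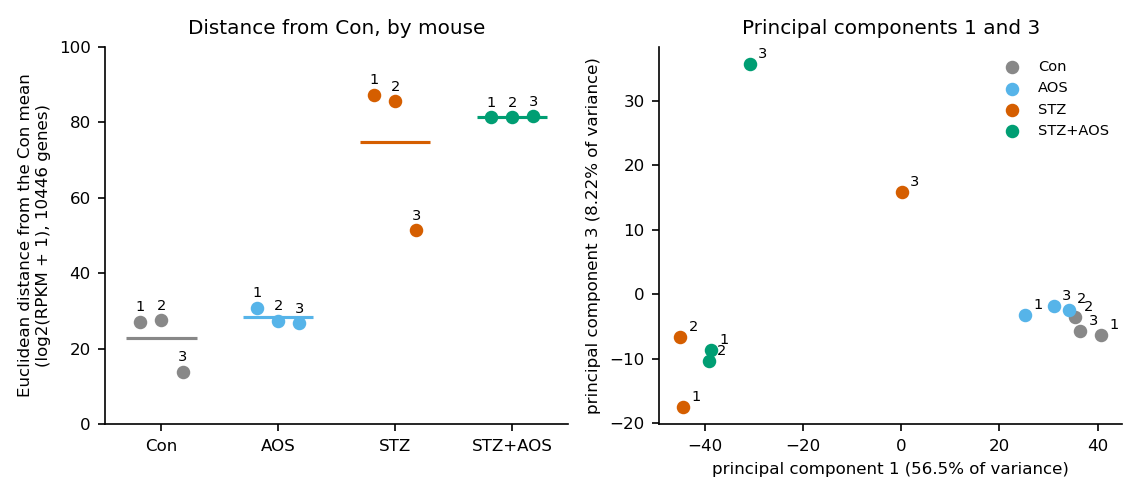
Left, Euclidean distance of each mouse from the Con mean on log2(RPKM + 1) for Con, AOS, STZ and STZ+AOS (points, numbered by mouse; lines, group means; a Con mouse is set against the mean of the other two). Right, the same libraries on principal components 1 and 3. STZ mouse 3 lies at 51.4, below the 5 other STZ and STZ+AOS mice at 81.4 to 87.3, and STZ+AOS mouse 3 stands apart on component 3.

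No gene of the STZ liver passed the threshold for a difference with direct AOS. At an adjusted p under 0.05 (limma, Benjamini-Hochberg over 10446 genes), 0 genes were called in STZ+AOS against STZ (0%), and the smallest adjusted p was 0.796. Before adjustment, 641 genes (6.14%) had a p under 0.05, and of these 523 (5.01%) were higher and 118 (1.13%) lower in STZ+AOS; 0.05 of all genes tested is 522. The median log2 difference over all genes was 0.05 (on log2(RPKM + 1), as are all log2 differences here), with 5% of genes below -0.26 and 5% above 0.33. For 94.7% of genes the 95% interval of the difference lay within 2-fold in either direction. These intervals used a spread pooled over all 18 libraries. The spread was larger in STZ and STZ+AOS (median SD 0.191 and 0.215) than in Con and AOS (0.111 and 0.093). The intervals may thus be too narrow for this comparison and do not show that AOS had no effect. The groups did not overlap in 535 genes (5.12%), with all STZ+AOS mice above all STZ mice in 432 (4.14%) and below in 103 (0.986%). For 3 against 3 independent libraries, a share of 0.1 of genes would separate in this way without any difference. A lack of overlap alone is thus weak evidence for any gene. Fitted on the STZ and STZ+AOS libraries alone, 0 genes were called and 131 had an unadjusted p under 0.05, and without Con mouse 3 and AOS mouse 3 the counts were 0 and 455. Under median-ratio scaling and median centring, which set the median difference to 0.01 and -0.01, 0 genes were called.

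Among genes that passed the filter, single genes were called only when 1 mouse was left out. Without STZ mouse 3, Ces3b, a liver carboxylesterase, and Hbegf, a growth factor that binds the EGF receptor, were called. Ces3b stood at 3.86, 13.6 and 207 RPKM in the STZ mice and at 40.3, 55.3 and 81.9 RPKM in the STZ+AOS mice, so that STZ mouse 3 alone exceeded all 3 STZ+AOS mice. Hbegf stood at 5.13, 6.2 and 0.97 RPKM in STZ and at 2.11, 1.76 and 1.68 RPKM in STZ+AOS, again with STZ mouse 3 on the far side. Without STZ+AOS mouse 2, Nrg4 was called (adjusted p = 0.0422, limma). Nrg4 encodes neuregulin 4, a secreted ligand of ErbB4, and stood at 9.74, 6.69 and 4.32 RPKM in STZ, at 20.9, 9.02 and 28 RPKM in STZ+AOS and at 1.1 to 1.84 RPKM in Con. With all mice its log2 difference was 1.28 (95% interval 0.63 to 1.94, unadjusted p = 0.00076, adjusted p = 0.796, limma), and mouse 2 of STZ+AOS lay below mouse 1 of STZ. Without STZ+AOS mouse 3, the zinc finger gene Zfp868 was called, which stood at 4.1 to 4.5 RPKM in STZ and at 8.04, 9 and 5.01 RPKM in STZ+AOS. Ces3b, Hbegf, Nrg4 and Zfp868 were chosen after their values were seen.

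**Figure D2:**
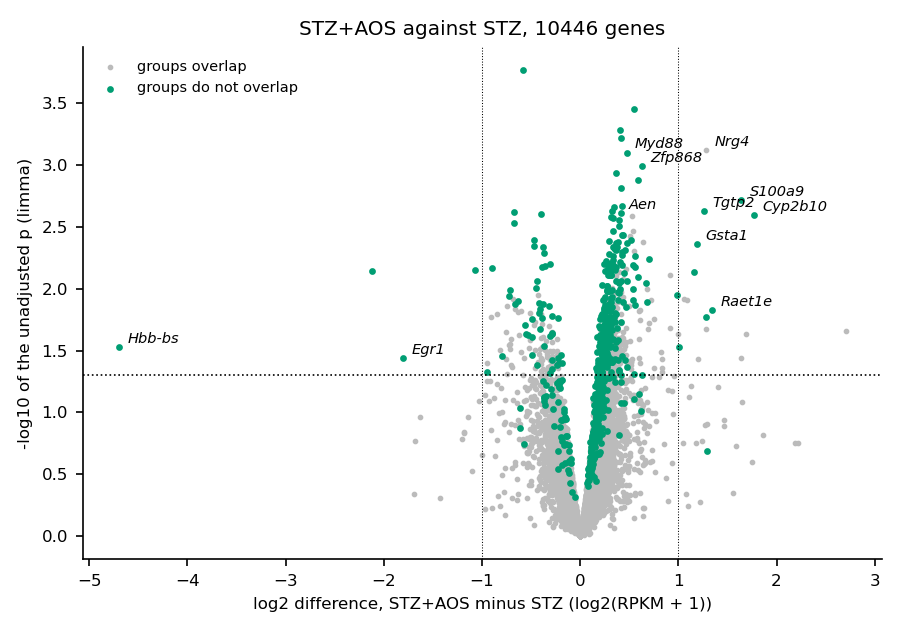
Log2 difference between the STZ+AOS and STZ means (horizontal axis) against the -log10 of the unadjusted limma p (vertical axis), 1 point per gene for 10446 genes. Green points are the 535 genes in which the 3 mice of one group all lie above the 3 of the other; the dotted horizontal line marks an unadjusted p of 0.05 and the vertical lines 2-fold, and no point passes after adjustment.

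In 13 genes the group means differed at least 2-fold and the groups did not overlap, 9 of them higher and 4 lower in STZ+AOS. None of the 13 was called (adjusted p = 0.796 to 0.806, limma). They were immune genes, detoxification genes and single genes of other kinds.

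Among the immune genes, S100a9 (chr3:90692632-90695721, mm10), a calcium-binding protein of neutrophils, stood at 1.31, 0.76 and 0.36 RPKM in STZ and at 10.2, 2.5 and 3.27 RPKM in STZ+AOS. Its log2 difference was 1.64 (95% interval 0.71 to 2.57, unadjusted p = 0.00191, limma), and Con mice held 0.87 to 4.94 RPKM. Only STZ+AOS mouse 1 lay above all Con mice. H2-Eb1, a chain of MHC class II that presents antigen to T helper cells, stood at 1.2, 0.26 and 0.08 RPKM in STZ and at 6.12, 1.3 and 1.64 RPKM in STZ+AOS, with STZ+AOS mice 2 and 3 just above the highest STZ mouse. Its log2 difference was 1.28, and 0.77 without STZ+AOS mouse 1. Tgtp1 and Tgtp2, neighbouring and near-identical interferon-inducible GTPases among which reads may have been split, stood at 4.02 to 8.54 and 2.15 to 4.92 RPKM in STZ and at 10.8 to 19.4 and 7.37 to 14.1 RPKM in STZ+AOS. Their log2 differences were 1.16 and 1.26. AOS mice 2 and 3 reached similar levels (13.4 and 10.5 RPKM of Tgtp1) without STZ, and AOS mouse 1 did not (3.83 RPKM). Raet1e, of the RAE-1 family of ligands for the NKG2D receptor of natural killer cells, stood at 1.28, 2.69 and 2.06 RPKM in STZ and at 3.48, 21.4 and 3.22 RPKM in STZ+AOS, so that its mean rested on mouse 2, and without that mouse its log2 difference was 0.56. C1rb, a complement protease gene, stood at 1.32 to 1.73 RPKM in STZ and at 1.76, 23.2 and 2.27 RPKM in STZ+AOS, with the same mouse high; in Con and AOS it varied from 2.29 to 34.2 RPKM among mice.

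Among the detoxification genes, Cyp2b10 (chr7:25897620-25926624, mm10), the cytochrome P450 that the receptor CAR induces, stood at 39, 25.3 and 26.7 RPKM in STZ and at 67, 63.4 and 264 RPKM in STZ+AOS. The log2 difference was 1.77 (95% interval 0.72 to 2.82, unadjusted p = 0.00255, limma), and it was 1.03 without mouse 3 of both groups. In Con the gene stood at 0.62 to 1.55 RPKM, so that both diabetic groups lay far above Con (log2 difference 3.84 for STZ, adjusted p = 0.000112, and 5.61 for STZ+AOS, adjusted p = 4.84e-06, limma). Gsta1 (chr9:78230656-78242684, mm10), a glutathione transferase, stood at 7.7, 7.84 and 13.3 RPKM in STZ and at 24.6, 24.4 and 19.4 RPKM in STZ+AOS, a log2 difference of 1.19 (95% interval 0.43 to 1.96). No single mouse made this difference: with each mouse left out and under every other setting it stayed between 1.07 and 1.54. Both genes have close relatives with which reads may have been shared.

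Of the remaining genes, Arrdc3, an arrestin-like adaptor of membrane receptors, stood at 10.6 to 17.1 RPKM in STZ and at 20.8, 42.7 and 24.4 RPKM in STZ+AOS, and Con mice (19.2 to 26.3 RPKM) overlapped STZ+AOS. Egr1, an immediate-early transcription factor, stood at 20.5, 23.6 and 155 RPKM in STZ and at 14, 8.62 and 12.3 RPKM in STZ+AOS, above Con (6.35 to 8.5 RPKM) in all 6 mice. STZ mouse 3 carried most of the mean, and without it the log2 difference of Egr1 went from -1.81 to -0.89. In the same mouse Fos, another immediate-early gene, reached 98 RPKM against 0.9 to 3.66 RPKM in the other 5, and the heat-inducible co-chaperone Dnajb1 reached 104 RPKM against 5.17 to 11.1 RPKM. Hbb-bs, a beta-globin gene, stood at 48.1, 2.66 and 245 RPKM in STZ and at 0.23, 0.15 and 0.79 RPKM in STZ+AOS. Hbb-bs was also at 0.85 RPKM in Con mouse 1 and at 0.9 RPKM in AOS mouse 1, against 84.6 to 220 RPKM in the other Con and AOS mice, so that its low level was not particular to STZ+AOS. The beta-globin gene Hbb-b1 stood at 123 to 816 RPKM in STZ and at 119 to 675 RPKM in STZ+AOS, with the groups overlapping. The numbered genes Gm46403 and Gm46223 were the remaining lower genes, at 32 to 37.8 against 12.8 to 21.8 RPKM and at 8.67 to 13 against 0.76 to 5.81 RPKM in STZ and STZ+AOS. Tgtp1, Tgtp2, Raet1e, C1rb, Hbb-bs, Fos, Dnajb1 and the numbered genes were named after their values were seen.

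**Figure D3:**
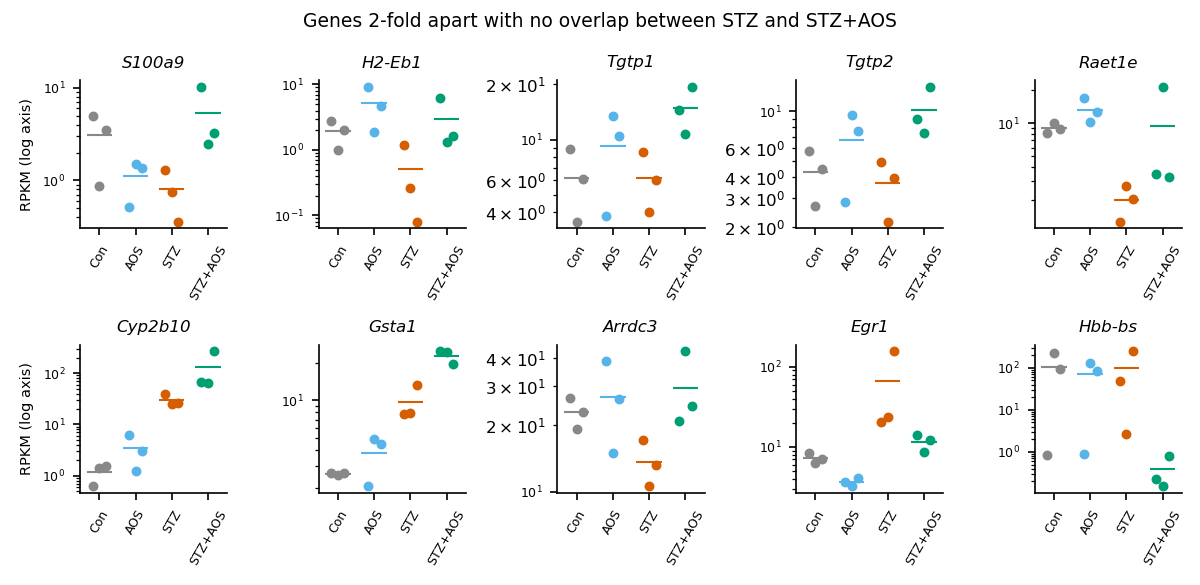
RPKM of each mouse (points, log axis; lines, group means of 3 mice) in Con, AOS, STZ and STZ+AOS for 10 of the 13 genes with a 2-fold difference and no overlap between STZ and STZ+AOS. In Raet1e, H2-Eb1 and Cyp2b10 a single STZ+AOS mouse is far above the others, and the STZ+AOS points of S100a9, H2-Eb1 and Arrdc3 overlap Con.

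The genes that follow insulin most closely overlapped between STZ+AOS and STZ. Pck1, the cytosolic enzyme that commits the liver to gluconeogenesis, stood at 2549, 2603 and 1400 RPKM in STZ and at 1870, 2526 and 1861 RPKM in STZ+AOS, against 287 to 342 RPKM in Con. The log2 difference of STZ+AOS from STZ was -0.03 (95% interval -0.58 to 0.52), beside a rise of 2.76 from Con to STZ (adjusted p = 1.8e-05, limma). G6pc, the enzyme that frees glucose, stood at 168 to 383 RPKM in STZ and at 163 to 312 RPKM in STZ+AOS, overlapping the 156 to 265 RPKM of Con. Igfbp1, a secreted binding protein of insulin-like growth factors that insulin represses, stood at 334, 976 and 190 RPKM in STZ and at 481, 305 and 3757 RPKM in STZ+AOS, with mouse 3 far above the rest and 18.1 to 24 RPKM in Con. Its log2 difference between the diabetic groups was 1.05 (95% interval -0.52 to 2.62) and was -0.05 without that mouse. Irs2, the insulin receptor substrate that insulin represses, again had its highest value in STZ+AOS mouse 3, at 6.62 to 11.2 RPKM in STZ and 7.31, 9.23 and 35.5 RPKM in STZ+AOS. Srebf1, the transcription factor of fat synthesis, stood at 23.9 to 46.4 and 22.7 to 38.7 RPKM. Cyp4a10, a fatty acid omega-hydroxylase under PPAR-alpha, rose in STZ by 8.31 on the log2 scale over Con (adjusted p = 8.11e-07, limma) and stood at 1264, 1178 and 696 RPKM in STZ and at 1097, 1305 and 1168 RPKM in STZ+AOS. Lepr, the leptin receptor, stood at 46.3, 42.1 and 21.7 RPKM in STZ and at 58.6, 45.4 and 122 RPKM in STZ+AOS, from 0.14 to 0.17 RPKM in Con. The difference of Lepr was 0.96, and 0.22 without mouse 3 of both groups. Cyp4a10 and Lepr were chosen after their values were seen.

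**Figure D4:**
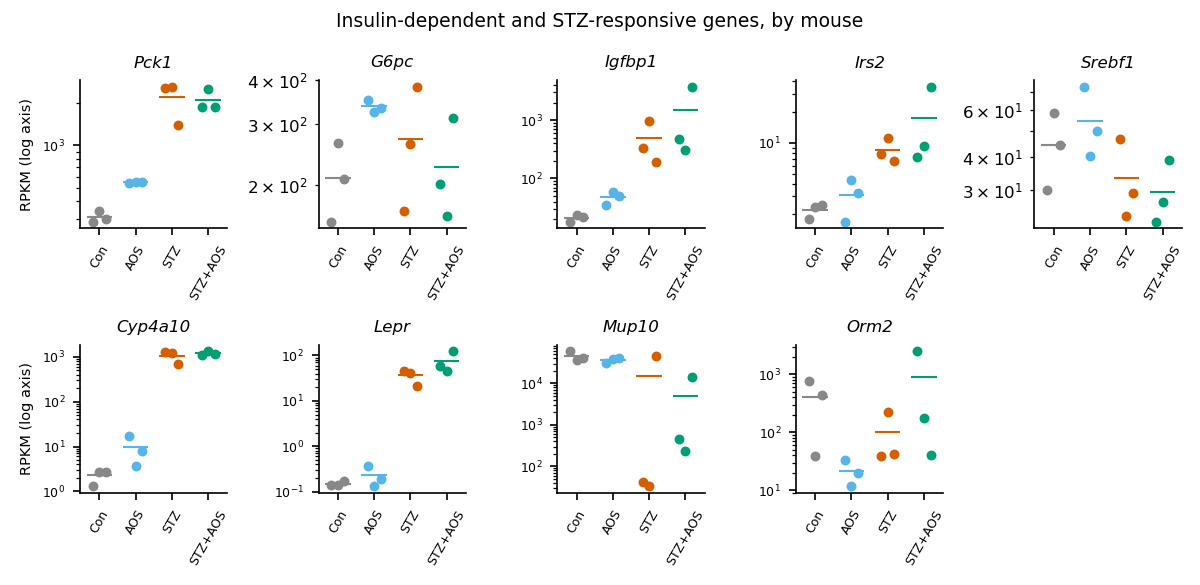
RPKM of each mouse (points, log axis; lines, group means of 3 mice) for 9 genes in Con, AOS, STZ and STZ+AOS: insulin-dependent genes (Pck1 to Srebf1), and Cyp4a10, Lepr, Mup10 and Orm2, chosen after their values were seen. STZ and STZ+AOS overlap in all 9, and STZ+AOS mouse 3 is the highest point for Igfbp1, Irs2 and Lepr.

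Over 46 gene lists, 45 had a gene tested and no member of any list was called in STZ+AOS against STZ. The median log2 difference lay within 0.25 of 0 in 39 lists, beside 0.05 over all genes. Of all 10446 genes tested, 6660 had a difference above 0 and 3786 below. Counts of list members above or below 0, here and in the paragraphs that follow, stand beside this background. Among the metabolic lists, gluconeogenesis and its regulators (20 genes) had a median of 0.18, with 14 members above 0, and the median was -0.15 without mouse 3 of both groups. Its smallest p was that of Sds, serine dehydratase, which turns serine into pyruvate, at 369, 199 and 247 RPKM in STZ and 494, 389 and 334 RPKM in STZ+AOS (log2 difference 0.6, unadjusted p = 0.0363, limma). The urea cycle list (14 genes) had a median of 0.01, and its arginase gene Arg1 a difference of 0.52 that was 0.26 without STZ+AOS mouse 1 (2563 RPKM against 1500 and 1504 RPKM in mice 2 and 3). Amino acid breakdown (32 genes) had a median of -0.02 and glycolysis and fructose use (23 genes) of -0.08.

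Several lipid and energy lists leaned to the lower side with small medians. The list of other PPAR-alpha target genes (22 genes) did not, with a median of 0.03, 11 members above 0 and 11 below. Fatty acid oxidation and ketogenesis (32 genes) had a median of -0.13 with 29 members below 0 and none at an unadjusted p under 0.05, and that median was -0.32 without STZ+AOS mouse 2. Its smallest p was that of Abcd2, a peroxisomal fatty acid transporter, with a difference of -0.79 (unadjusted p = 0.0989, limma) that was -0.33 without STZ mouse 1. Oxidative phosphorylation (75 genes) had a median of -0.09 with 67 below 0. Its median ranged from -0.25 without STZ mouse 3 to 0.02 without STZ+AOS mouse 3, and the members of a list are not replicates. Lipogenesis and desaturation (21 genes) had a median of -0.15, with Acly, the enzyme that makes cytosolic acetyl-CoA, at 38.2 to 49.3 RPKM in STZ and at 29.3 to 37.8 RPKM in STZ+AOS without overlap (log2 difference -0.37, 95% interval -0.79 to 0.05). Omega-hydroxylation and acyl-CoA hydrolysis (14 genes) had a median of -0.09 with 10 below 0. Its smallest p was that of Cyp4a31, a fatty acid hydroxylase of a family of close relatives, at 4.16, 4.56 and 0.99 RPKM in STZ and 2.89, 19 and 6.66 RPKM in STZ+AOS, a difference of 1.13 (unadjusted p = 0.0609, limma) that was 0.5 without STZ+AOS mouse 2. Cd36, a fatty acid uptake protein and PPAR-alpha target, stood at 13.6, 19.3 and 7.68 RPKM in STZ and at 51, 29.9 and 13.4 RPKM in STZ+AOS, against 1.85 to 2.45 RPKM in Con, a log2 difference of 1.06 (95% interval 0.27 to 1.85, unadjusted p = 0.0121, limma). That of Cd36 was 0.62 without STZ+AOS mouse 1 and 1.55 without STZ+AOS mouse 3. Nr0b2, the nuclear receptor SHP that represses bile acid synthesis, stood at 75, 71.4 and 42.9 RPKM in STZ and at 35.8, 26.6 and 35.8 RPKM in STZ+AOS, a log2 difference of -0.9 (95% interval -1.51 to -0.29, unadjusted p = 0.00686, limma) without overlap. Con mice held 41.8 to 48.7 RPKM of Nr0b2, above all 3 STZ+AOS mice.

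The cholesterol synthesis and uptake list (26 genes), which the factor SREBP-2 drives when cell sterol is low, had the lowest median of the 45 lists, -0.54, with 25 members below 0 and 3 at an unadjusted p under 0.05, against 1.13% of all genes in that direction. Among these were Insig1, a sterol-sensing retention protein, and Pmvk, phosphomevalonate kinase, with log2 differences of -0.7 and -0.73. That of Insig1 was -0.28 without STZ+AOS mouse 1, and that of Pmvk was -0.37 without STZ mouse 1. The list mean of each mouse relative to Con was 0.57, 0.16 and -0.75 in STZ and -1.17, -0.12 and -0.32 in STZ+AOS. STZ mouse 3 thus lay below STZ+AOS mice 2 and 3, STZ+AOS mouse 1 lay lowest, and the groups overlapped. Fdps, farnesyl diphosphate synthase, followed this order with 329, 231 and 73.7 RPKM in STZ and 48.7, 119 and 154 RPKM in STZ+AOS. The median of the list ranged from -0.96 without STZ mouse 3 to -0.2 without STZ+AOS mouse 1. Fdps and Pmvk were chosen after their values were seen.

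**Figure D5:**
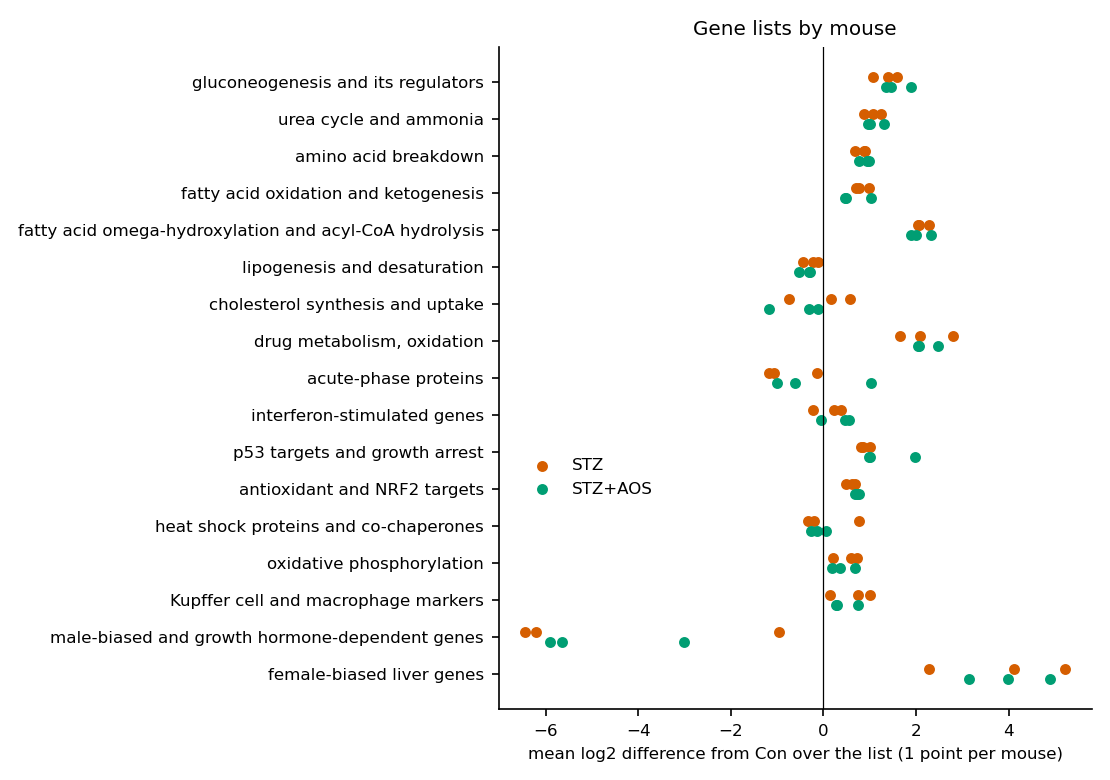
Mean log2 difference from Con over the tested genes of 17 lists, 1 point per mouse, for STZ (orange) and STZ+AOS (green). The groups overlap in most lists; single mice stand apart in the acute-phase list (STZ+AOS mouse 1 at 1.03), the p53 list (STZ+AOS mouse 3 at 1.97), the heat shock list (STZ mouse 3 at 0.76) and the male-biased list (STZ mouse 3 at -0.96).

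The p53 target list, made of genes of cell cycle arrest, DNA damage and apoptosis, leaned the other way. Of its 24 tested genes 23 had a difference above 0, the median was 0.43, and 6 had an unadjusted p under 0.05 in that direction, against 5.01% of all genes. These 6 were Zmat3, Aen, Eda2r, Ccng1, Gadd45a and Sesn2, with log2 differences of 0.34, 0.41, 0.53, 0.43, 0.92 and 0.6. Aen, an apoptosis-enhancing nuclease, stood at 12.8, 13.1 and 14.4 RPKM in STZ and at 19, 16.7 and 18.8 RPKM in STZ+AOS, against 5.9 to 7.25 RPKM in Con, with no overlap between any of the 3 groups. Zmat3, an RNA-binding p53 target, stood at 1.27 to 1.5 RPKM in STZ and at 1.74 to 2.39 RPKM in STZ+AOS, and Ccng1, cyclin G1, at 17.3 to 22.4 and at 23.8 to 33.8 RPKM, again without overlap. These genes kept differences between 0.35 and 0.47 (Aen), 0.25 and 0.51 (Zmat3) and 0.29 and 0.54 (Ccng1) under all 18 alternatives run on them. Their lowest adjusted p was 0.157 (limma), for Aen and for Zmat3, each without STZ+AOS mouse 2. Other members rested on mouse 3 of the groups: without both, Sesn2 had a difference of 0.21 and Gadd45a of 0.42. Trp53inp1, a stress-induced p53 cofactor, stood at 16.1 to 30.2 RPKM in STZ and at 19.1, 24.7 and 180 RPKM in STZ+AOS, and Cdkn1a, the cell cycle inhibitor p21, at 9.12, 20 and 37.1 RPKM and at 28.3, 10.4 and 92.5 RPKM. The list mean relative to Con was 0.86, 1.01 and 0.8 in STZ and 0.98, 1 and 1.97 in STZ+AOS, and without STZ+AOS mouse 3 the list median was 0.11. The list was higher than in Con in both groups: 13 of the 24 genes rose in STZ (background 32.1% of all genes rose) and 19 rose in STZ+AOS (background 42.6%), with none lower. Ccng1, Eda2r, Gadd45a, Sesn2, Trp53inp1 and Cdkn1a were chosen after their values were seen.

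The medians of the other stress lists lay from -0.16 to 0.08, beside 0.05 over all genes. The antioxidant and NRF2 target list (38 genes) had a median of 0.08 and the unfolded protein and integrated stress list (33 genes) of 0.03. The heat shock list (29 genes) had a median of -0.16, with a list mean relative to Con of -0.33, -0.21 and 0.76 in STZ and -0.15, -0.27 and 0.06 in STZ+AOS, so that STZ mouse 3 alone stood high, and without it the median was 0.14.

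The acute-phase list, made of plasma proteins that hepatocytes secrete in inflammation, had a median of 0.5 over 28 genes with 25 above 0. A single mouse set this: the list mean relative to Con was 1.03 in STZ+AOS mouse 1, -0.61 and -1 in mice 2 and 3, and -1.06, -0.15 and -1.18 in STZ, and without STZ+AOS mouse 1 the median was 0.01. Orm2, orosomucoid 2, stood at 2489 RPKM in that mouse, at 180 and 40.5 RPKM in the other STZ+AOS mice, at 39.8, 223 and 42 RPKM in STZ, and at 39.8 to 762 RPKM in Con. Saa1, serum amyloid A, stood at 3430, 200 and 33.6 RPKM in STZ+AOS and at 28, 454 and 46.4 RPKM in STZ, and ranged from 296 to 6422 RPKM in Con and from 61.1 to 278 RPKM in AOS. The signal transducer Stat3, which switches these genes on, stood at 30.7 to 42.5 RPKM in STZ and at 39.4 to 53.2 RPKM in STZ+AOS, a difference of 0.36 that was 0.21 without mouse 3 of both groups. Saa1 and Orm2 were chosen after their values were seen.

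In immune genes outside the acute phase, Myd88, the adaptor of Toll-like receptors, stood at 6.52, 5.76 and 7.03 RPKM in STZ and at 9.84, 8.14 and 10 RPKM in STZ+AOS, without overlap, a log2 difference of 0.47 (95% interval 0.23 to 0.72, unadjusted p = 0.000791, limma). Con mice held 6.19 to 8.72 RPKM of Myd88, overlapping STZ+AOS. The endotoxin and NF-kB list to which it belongs (23 genes) had a median of 0.14 and 2 genes at an unadjusted p under 0.05, both higher, a share near the 5.01% of all genes that were higher. The interferon-stimulated list (44 genes) had a median of 0.21 with 35 above 0 and 1 at an unadjusted p under 0.05, Ifi35. The median was 0 without STZ mouse 2, and the list mean relative to Con overlapped between the groups (-0.23 to 0.37 in STZ, -0.06 to 0.56 in STZ+AOS). MHC class I genes (25) and MHC class II genes (6) had medians of 0.04 and -0.04, and H2-Eb1 was the 1 class II gene without overlap. Complement and coagulation (39 genes) had a median of -0.04.

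No marker of another cell type was called. In whole liver, fewer cells of a type cannot be told apart from less RNA per cell. Of 13 neutrophil markers 9 stayed under 1 RPKM in all 6 mice and 3 were tested, S100a9, S100a8 and Retnlg, with a median difference of 0.89. Their summed level over the list was 1.81 to 5.34 RPKM in STZ, 22.2, 6.79 and 8.25 RPKM in STZ+AOS and 3.67 to 12.2 RPKM in Con, so that the STZ+AOS values lay above STZ with mouse 1 highest and mice 2 and 3 within Con. Of the 3 tested markers only S100a9 did not overlap between STZ and STZ+AOS, and the median difference was 0.5 without STZ+AOS mouse 1. The part of neutrophils in the values of S100a9 was not tested. Of 16 tested Kupffer cell and macrophage markers 14 had a difference below 0 and the median was -0.2, from -0.41 without STZ mouse 3 to -0.08 without STZ mouse 2. Their summed level was 380, 472 and 231 RPKM in STZ and 369, 260 and 270 RPKM in STZ+AOS. Lyz2, lysozyme of myeloid cells, had the smallest p of this list, at 42.4, 66.1 and 21.5 RPKM in STZ and 29.2, 23.3 and 14.3 RPKM in STZ+AOS (log2 difference -0.85, unadjusted p = 0.016, limma). That of Lyz2 was -1.27 without STZ mouse 3 and -0.48 without STZ mouse 2. T, NK and B cell markers were below the filter in every case (summed level 2.12 to 6.06 RPKM over 16 markers in the 6 mice). All 14 hepatocyte markers were tested, with a summed level of 75300 to 88900 RPKM in STZ and 69600 to 86100 RPKM in STZ+AOS, and endothelial, stellate and cholangiocyte lists had medians of 0.07, 0.12 and -0.01. Transcripts of the exocrine pancreas stood apart in 1 library: the summed level of 15 pancreatic markers was 121 RPKM in STZ+AOS mouse 3 and 3.58 to 8.86 RPKM in the other 5 diabetic mice. In that library chymotrypsinogen Ctrb1 reached 36.5 RPKM, and it was at 0 to 0.09 RPKM in the other 5. The same mouse was the highest for Trp53inp1, Cdkn1a, Igfbp1, Irs2, Lepr and Cyp2b10, and the part of pancreatic tissue in these values was not tested.

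The male pattern of the liver was reduced against Con in both diabetic groups, least in STZ mouse 3: 21 of 26 genes fell in STZ (4.51% of all genes fell) and 22 in STZ+AOS (5.39% of all genes). Over these male-biased and growth hormone-dependent genes the list mean relative to Con was -6.22, -6.44 and -0.96 in STZ and -5.91, -5.66 and -3.01 in STZ+AOS. Mouse 3 of STZ thus lay closest to Con, and mouse 3 of STZ+AOS lay between it and the other diabetic mice. Mup10, a major urinary protein gene of a near-identical family, stood at 41, 32.6 and 44991 RPKM in STZ, at 467, 237 and 14524 RPKM in STZ+AOS and at 36028 to 58988 RPKM in Con. In mice 1 and 2 of both groups the STZ+AOS values were the higher ones, and without STZ mouse 3 the log2 difference of Mup10 went from 1.56 to 4.96 and was not called. The median of the list was -0.44, and it was 1.53 without STZ mouse 3, -1.22 without STZ+AOS mouse 3 and 0.28 without both, so that its sign turned on which mouse was in the comparison. Socs2, the feedback inhibitor of growth hormone signalling, stood at 47.8, 56.9 and 25 RPKM in STZ and at 17.4, 14.7 and 34.4 RPKM in STZ+AOS, against 12.9 to 15.6 RPKM in Con, and rose in STZ (log2 difference 1.47, adjusted p = 0.0146, limma). The log2 difference between STZ+AOS and STZ for Socs2 was -0.95 (95% interval -1.85 to -0.05, unadjusted p = 0.0401, limma), and -1.64 without mouse 3 of both groups. Female-biased genes (24) had a list mean relative to Con of 5.22, 4.11 and 2.27 in STZ and 3.99, 4.89 and 3.15 in STZ+AOS, again with mouse 3 lowest in each group. Their smallest p in STZ+AOS against STZ was that of A1bg, a plasma glycoprotein gene, at 3.26, 0.48 and 1.14 RPKM in STZ and 2.7, 32.6 and 2.63 RPKM in STZ+AOS, a difference of 1.69 (unadjusted p = 0.0234, limma) that was 0.62 without STZ+AOS mouse 2. Mup10 was chosen after its values were seen.

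Transcripts of the proteins and enzymes that the study measured by other assays overlapped between the groups. The paper measured alanine aminotransferase, superoxide dismutase and catalase in blood, and Bax and Bcl-xl as liver protein. It describes no STZ mice given AOS directly, so these liver transcripts are no check on those assays. Bax, which opens the mitochondrial membrane in apoptosis, had a log2 difference of 0.22 (95% interval -0.11 to 0.55), and Bcl2l1, which opposes it, of 0.46 (-0.07 to 0.98). Both had their highest value in STZ+AOS mouse 3, at 51.5 and 40.5 RPKM, against at most 38.9 and 20.9 RPKM in the other 5 mice. Gpt, alanine aminotransferase, stood at 143 to 216 RPKM in STZ and at 114 to 256 RPKM in STZ+AOS (log2 difference -0.01, 95% interval -0.52 to 0.5). The superoxide dismutases Sod1, Sod2 and Sod3 had differences of -0.12, -0.05 and 0.15, and catalase, Cat, of -0.06, each with an interval that held 0 and lay within 2-fold. These intervals too used the spread pooled over all 18 libraries and may be too narrow.

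Members with the smallest p of the remaining lists are given by their log2 difference. Among those with an unadjusted p under 0.05 (limma) were Masp1, a protease that starts the lectin pathway of complement (0.29), Aldoa, a glycolytic aldolase (0.41), Gsk3a, a glycogen synthase kinase (0.3), Slc39a14, a zinc and iron importer (0.42), Pcna, the DNA polymerase clamp (0.33), and Dnaja2, a co-chaperone (0.2). Without mouse 3 of both groups these were 0.14 for Aldoa, 0.1 for Gsk3a, 0.22 for Slc39a14 and 0.04 for Pcna. Chac1, a glutathione-degrading enzyme of the stress response, had a difference of 0.69 (unadjusted p = 0.0101, limma), and Tat, tyrosine aminotransferase, of 0.69 that was 0.07 without STZ+AOS mouse 3. Lower were Prodh2, a hydroxyproline dehydrogenase (-0.4), Ndufv3, a subunit of respiratory complex I (-0.34), and Gulo, the last enzyme of vitamin C synthesis (-0.6). Of these, Masp1 and Dnaja2 had no overlap between the groups: Masp1 stood at 30.1 to 36.9 RPKM in STZ and 40.3 to 43.1 RPKM in STZ+AOS, and Dnaja2 at 33.7 to 36.9 and 39.7 to 42.5 RPKM. Gulo stood at 72.7 RPKM in STZ+AOS mouse 1 against 127 to 215 RPKM in the other 5, and its difference was -0.3 without that mouse. Pericentral genes (16) had a median of -0.21 with 14 below 0, and periportal genes (16) of 0.1 with 11 above 0. The periportal count was near the share of all genes above 0 (6660 of 10446). Cytosolic ribosomal proteins (79 genes) had a median of 0.01, the circadian clock (21 genes) of 0.19, and thyroid hormone and glucocorticoid response genes (20) of 0.22. The clock median was -0.13 without STZ mouse 3, the hormone response median -0.02 without STZ+AOS mouse 3, the pericentral median -0.03 without STZ+AOS mouse 1 and the ribosomal median -0.21 without STZ mouse 3.

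Against Con, both diabetic groups differed in a large share of genes. In STZ 3829 genes were called (36.7%), of which 3358 were higher (32.1%) and 471 lower (4.51%), and in STZ+AOS 5013 were called (48%), of which 4450 were higher (42.6%) and 563 lower (5.39%). The groups did not overlap with Con in 47.9% and 53.6% of genes. Both sets of calls used the same Con mice. Without Con mouse 3 and AOS mouse 3 the counts were 2426 and 3841. The count of STZ was 2341 without STZ mouse 2, 4548 without STZ mouse 3 and 2466 without Con mouse 1, so that it moved with single mice. The excess of higher calls depended on the scaling: the median gene lay 0.22 (STZ) and 0.28 (STZ+AOS) above Con on the log2 scale, and after median-ratio scaling 1313 were higher and 1170 lower in STZ and 1621 and 1429 in STZ+AOS. The distances of both groups from Con overlapped. The distance from Con was 74.8 ± 20.2 (SD, n = 3) in STZ and 81.5 ± 0.196 (SD, n = 3) in STZ+AOS, a difference of 6.71 (exact permutation test, two-sided, p = 1; the smallest p that 3 against 3 mice allow is 0.1). Without STZ mouse 3 the difference was -4.96, so that its direction rested on that mouse. List medians relative to Con were 1.11 in STZ and 1.22 in STZ+AOS for gluconeogenesis, 0.72 and 0.57 for fatty acid oxidation, 1.89 and 1.96 for omega-hydroxylation, and -0.41 and -0.43 for lipogenesis. They lay further apart for cholesterol synthesis (0.09 and -0.37), acute-phase proteins (-0.62 and -0.06), p53 targets (0.91 and 1.33) and the thyroid hormone and glucocorticoid response (0.72 and 1.17). These medians were not tested against each other.

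The effect of AOS in STZ mice was also set against its effect in mice without STZ, which used other mice on both sides. In AOS against Con 0 genes were called (0%), the smallest adjusted p was 0.15 (limma), and 744 genes had an unadjusted p under 0.05. Without Con mouse 3 and AOS mouse 3 the counts were 0 and 273. The AOS and Con groups did not overlap in 24.3% of genes. Con mouse 3 and AOS mouse 3 mostly lay between the other mice of their groups, so the share for independent libraries is no standard for this value. In the difference between the AOS effects 0 genes were called (0%) and 556 had an unadjusted p under 0.05, with 0 and 275 without Con mouse 3 and AOS mouse 3. Across the 10446 genes, which are not independent replicates, the log2 differences STZ+AOS minus STZ and AOS minus Con had a Pearson r of -0.025 and a Spearman rho of -0.05. Among genes with a 2-fold difference of effects, the smallest p belonged to Pltp, S100a9, Nr1d1 and Steap4. Pltp, the phospholipid transfer protein of plasma, stood at 9.13, 16.6 and 13.1 RPKM in Con and at 52.6, 22.6 and 30 RPKM in AOS, and at 6.49 to 14.1 RPKM in STZ and 7.04 to 8.64 RPKM in STZ+AOS. Nr1d1, the clock repressor REV-ERB-alpha, whose level follows the hour of the day, stood at 1.22 to 3.68 RPKM in Con and at 10 to 30.7 RPKM in AOS, and at 22.9 to 35.1 and 23 to 54.1 RPKM in STZ and STZ+AOS. Steap4, a metalloreductase of the acute-phase list, stood at 26.3 to 106 RPKM in Con, 23.4 to 29.3 RPKM in AOS, 24.9 to 26.8 RPKM in STZ and 31.5 to 58.9 RPKM in STZ+AOS. The log2 difference of effects was -1.63 for Pltp (95% interval -2.5 to -0.77, adjusted p = 0.857, limma), 2.47 for S100a9, -2.09 for Nr1d1 and 1.75 for Steap4. In Pltp and Nr1d1 the AOS mice stood above Con and in the STZ mice the groups overlapped, while Steap4 was spread among the Con mice.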

How the data were processed

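Liver mRNA was enriched with oligo(dT), and 18 libraries (6 groups of 3) were sequenced by the authors. The deposited table held 1 value per gene and library, rounded to 2 decimals, taken as RPKM from the methods because its header names no unit. RPKM divides reads by transcript length and by mapped reads, so a few very abundant transcripts, such as the Mup genes, alter the values of all others. The paper's methods name SOAPaligner, whereas the labels list Bowtie 0.12.2 and the build mm10. Read totals were not given in the sources used here. Low values were searched for whole-read steps, but only 17 of 9631 candidate genes fitted steps (within 0.12), so the depth is unknown and no interval for counting error was computed. RPKM sums were 631126 to 684659 in STZ and 621121 to 642433 in STZ+AOS.

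Groups came from the labels. Genes with 1 RPKM or more in 3 or more of the 6 STZ and STZ+AOS libraries were kept, and log2(RPKM + 1) values of all 18 libraries were fitted by group with limma 3.58.1 in R 4.3.3 (eBayes with trend), with Benjamini-Hochberg adjustment over 10446 genes. Distances were compared by an exact permutation test. The test was checked on simulated data in which all groups had the same spread for a gene. That check did not cover the unequal spread of the groups, nor libraries that are not independent. Alternatives were other scalings, a pseudocount of 0.1, other filters, limma without trend or with array weights, only the groups compared, a mouse-number block, and leaving out mice.

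The members and lists were chosen with earlier results of these data known. The genes named were those with a 2-fold difference and no overlap (at most 8 each way), the member of each list with the smallest p, the 4 with the smallest p in the difference of AOS effects, transcripts of proteins the study assayed, and insulin-dependent genes; genes added after their values were seen are marked. Coordinates are from GENCODE M21 on GRCm38 (mm10). The table held 26 symbols that look like dates and 3 repeated symbols, and none of these is named. Results of some genes are not reported here.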

Additional observations from a re-analysis of the deposited data

How the results depend on the processing

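The count of 0 called genes in STZ+AOS against STZ was the same under every scaling, the pseudocount of 0.1, the stricter filter, limma without trend or with array weights and the groups compared alone. Without a filter on low values 6 genes were called, none above 0.65 RPKM in any library; the limit of 2-fold and no overlap, which uses no test, gave 13 genes. Leaving out 1 mouse gave 0 to 2 calls, and leaving out mouse 3 of both groups gave 0 (smallest adjusted p 0.0653, 892 genes at an unadjusted p under 0.05; chosen after seeing the data). Deviations of same-numbered STZ and STZ+AOS mice from their group means correlated at 0.03, -0.12 and 0.34. Only mouse 3 of both groups correlated best with its own number. With the replicate block 0 genes were called, with a smallest adjusted p of 0.341 (limma) and 639 genes at an unadjusted p under 0.05. For the difference of AOS effects, no filter gave 3 calls (Ccl4, Fras1, Srsx) and array weights 1 (Sfi1), and leaving out 1 mouse gave 0 throughout. For AOS against Con, no filter gave 4 calls (Loxl4, Pitx3, Ces4a, Fras1), the 2 groups alone 36 and array weights 4364, with a weight of 37.6 for Con mouse 3 and of 4.9 for AOS mouse 3 against 0.634 to 1.46 for the other Con and AOS mice; leaving out 1 mouse gave 0 to 3 (Mfsd2a without AOS mouse 2; Saa3, Steap4 and Nnmt without Con mouse 2). STZ+AOS against Con gave 3050, 3093 and 3043 calls and STZ against Con 2483, 2522 and 2469 under median-ratio scaling, quantile normalization and median centring, with 53.1%, 49.3% and 44% and 52.9%, 49.6% and 46.7% higher, against 88.8% and 87.7% as reported. Leaving out 1 mouse gave 3895 to 4798 and 2341 to 4548, and leaving out Con mouse 3 and AOS mouse 3 gave 3841 and 2426. The distance from Con differed by -4.96 to 12.9 with 1 mouse left out. With the block, STZ against Con gave 3724 calls and STZ+AOS against Con 5000, and the difference of AOS effects and AOS against Con gave 0. Of 1534 values of 86 named genes under an alternative, 1486 kept direction and side of the threshold, 4 were called and 44, in 20 genes, had the other sign. Quantile normalization gave 0.02 for Gpt and 0.01 for Cat; array weights gave -0.19 for Fabp4, -0.01 for Nr1d1, 0.18 for Gpt, 0.04 for Sod2, 0 for Cat and -0.08 for Igfbp1. Without STZ mouse 3 and STZ+AOS mouse 3 the differences were -0.01 for Tat, -0.27 for Fabp4, -0.06 for Bax, -0.05 for Bcl2l1, 0.15 for Gpt, 0.08 for Sod2, 0.15 for Cat, -0.57 for Igfbp1, -0.16 for Irs2, -0.03 for Cyp4a10, -0.02 for Trp53inp1 and -0.42 for Srebf1 (whose sign did not turn). With 1 mouse left out the range turned sign for Gpt (-0.25 to 0.33), Sod2 (-0.16 to 0.14), Sod3 (-0.08 to 0.3), Cat (-0.25 to 0.16), Pck1 (-0.32 to 0.13), G6pc (-0.54 to 0.05), Srebf1 (-0.35 to 0.12), Igfbp1 (-0.05 to 1.76), Irs2 (-0.02 to 1.05), Saa1 (-0.04 to 3.28), Cyp4a10 (-0.04 to 0.39), Mup10 (-0.26 to 4.96), Trp53inp1 (-0.05 to 1.53), Cdkn1a (-0.14 to 1.38), Dnajb1 (-1.95 to 0.08) and Fabp4 (-0.05 to 0.6). Tat, Bax and Bcl2l1 kept their sign with 1 mouse left out, up to 1.09, 0.33 and 0.75. The cause of these changes was not tested.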

Other observations

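Fos, Egr1 and Dnajb1 in STZ mouse 3, the acute-phase genes in STZ+AOS mouse 1 and the pancreatic transcripts in STZ+AOS mouse 3 were each high in 1 mouse. Of the pancreatic genes below the filter, Try4 stood at 16 RPKM, Try5 at 15.4 RPKM, Cela2a at 10.8 RPKM and Amy2a5 at 10.1 RPKM in STZ+AOS mouse 3, and Ins1 was listed at 0 in all Con, AOS, STZ and STZ+AOS mice. Cela1, an elastase gene, was lower in STZ and STZ+AOS (2.96 to 8.73 RPKM and 3.1 to 4.39 RPKM) than in Con (30.8 to 40.5 RPKM), and stood at 4.39 RPKM in STZ+AOS mouse 3, so that it did not follow the other pancreatic genes.

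Hbb-bt, a beta-globin gene next to Hbb-bs, was listed at 0 in all 3 STZ+AOS mice, in STZ mouse 2, in Con mouse 1 and in AOS mouse 1, which are the mice in which Hbb-bs was under 3 RPKM, while the alpha-globin gene Hba-a1 stood at 277 to 2494 RPKM in all 12 mice of the 4 groups.

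In 74 of 10446 genes all STZ+AOS mice stood above all STZ mice and all AOS mice above all Con mice. In 8 genes both stood below, and in 10 and 11 genes they stood on opposite sides. Over all genes tested, 5.12% did not overlap between STZ+AOS and STZ, and 24.3% did not between AOS and Con. Some genes can thus fall in both by coincidence, and these counts do not show a shared effect of AOS. The differences of these genes were not tested one by one.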
